A study of Mus musculus with 12 samples.

Results

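Pou2f3, Gnat3 and Ehf are 3 genes best known from tuft cells and other epithelia that were transcribed in CH12F3-2A, a line of mouse lymphoma B cells. They were chosen by a measured value, out of 56941 genes in the deposited count table: their transcripts fell strongly after CIT, a cocktail that induces class switching to IgA. Their CIT change is therefore given as a description without a test, and the tests below concern the guide.

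All cells were CH12F3-2A and all had been transfected with the plasmid pX459, which carries Cas9 and a guide RNA, and selected with puromycin for 72 h. The guide was directed at Nop16, a gene for a nucleolar protein (sgNop16), or was non-targeting (sgCtr). Cells of each kind were left without stimulation or received CIT for 24 h, which held human TGF-β at 1 ng/ml, mouse IL-4 at 20 ng/ml and anti-CD40L at 1 μg/ml. This gave 4 groups of 3 RNA-seq libraries, stated to be biological replicates, in a study of the part that NOP16 plays in class switch recombination. No label tells whether the edited cells were a pool or a clone, and with a single Nop16 arm a guide difference cannot be assigned to Nop16 itself.

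The libraries held 38866418 to 48615177 counts each. The targeted transcript, Nop16, was at 106.3 ± 2.35 CPM (counts scaled to library size; SD, n = 3) with sgCtr and 85.7 ± 3.10 with sgNop16 without CIT, a log2 difference of -0.31 ± 0.04 (SE). With CIT it was at 77.1 ± 3.46 and 65.7 ± 0.93. Both guide differences passed the test described below (adjusted p = 0.000109 and 0.00204).

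POU2F3 is a POU-domain transcription factor that binds the octamer motif and is required for tuft cells, the chemosensory cells of gut, airway and taste epithelium. It works there with the coactivators OCA-T1 (Pou2af2) and OCA-T2 (Pou2af3), which resemble OCA-B (Pou2af1), the B cell coactivator of the related factors OCT1 (Pou2f1) and OCT2 (Pou2f2). Gnat3 encodes α-gustducin, the G protein α subunit that couples sweet, bitter and umami taste receptors to phospholipase C β2 and the channel TRPM5, and it is also made in tuft cells. EHF is an ETS-family transcription factor of epithelia and a close relative of ELF3 and ELF5.

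Promoter windows from RefSeq (GRCm38.p6), each the 250 bases before an annotated start, are shown for Gnat3 and for the gene of the POU2F3 coactivator OCA-T1, which the annotation names 1810046K07Rik. They were scanned on both strands for letters of factors that act in B cells or downstream of the cocktail. Capitals mark TTC and GAA half-sites of STAT6 type, 4 bases apart, in Gnat3 and the octamer ATGCAAAT or its reverse complement in 1810046K07Rik. Sequences of Pou2f3 and Ehf were not used here.
Gnat3, chr5:17962320-17962569, plus strand: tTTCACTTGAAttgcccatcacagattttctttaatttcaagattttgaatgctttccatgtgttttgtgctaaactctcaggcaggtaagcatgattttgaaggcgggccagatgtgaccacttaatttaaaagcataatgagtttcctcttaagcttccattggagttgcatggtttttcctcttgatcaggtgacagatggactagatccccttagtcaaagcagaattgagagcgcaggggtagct
1810046K07Rik, chr9:51328919-51329168, minus strand: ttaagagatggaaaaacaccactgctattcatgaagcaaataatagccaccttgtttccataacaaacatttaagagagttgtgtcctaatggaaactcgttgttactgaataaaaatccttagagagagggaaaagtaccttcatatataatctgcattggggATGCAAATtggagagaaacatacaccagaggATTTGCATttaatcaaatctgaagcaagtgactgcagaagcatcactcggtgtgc

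The Gnat3 window held the STAT6-type half-sites at positions -249 to -240 from the start, a pattern found in 5.85% of 32851 such windows, and no octamer. The 1810046K07Rik window held the octamer at -86 to -79 and, on the other strand, at -55 to -48. The octamer occurred in 1.60% of the windows, and 32 of them (0.0974%) held it at least 2 times. A further window of 1810046K07Rik, and those of Sh2d7, Avil and Rgs13, held none. Neither printed window held GGAAGT (19.7% of windows), TTC and GAA 3 bases apart (7.02%), TGTGGT (14.0%), GTCTAGAC (0.167%), CAGCTG (13.0%) or TATAAA (12.4%), searched for ETS, STAT, RUNX, SMAD, E-box and TATA factors. These matches describe letters and are no evidence of binding.

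Pou2f3 had the largest fall of the 3 genes. In unstimulated sgCtr cells it was at 74.5, 78.2 and 72.9 CPM in the 3 libraries, a mean of 75.2 ± 2.72. After CIT the sgCtr libraries were at 5.53, 3.65 and 4.66 CPM, a mean of 4.61 ± 0.942. Every unstimulated library was far above every stimulated one. In sgNop16 cells it was at 52.6, 52.7 and 54.8 CPM without CIT and at 1.66, 1.95 and 1.09 CPM with it. The 3 stimulated sgNop16 libraries were the lowest of the 12, and the 4 groups did not overlap at all. How many of all tested genes separate in this way was not counted. The fitted log2 change with CIT was -4.03 ± 0.13 (SE) in sgCtr cells, a 16.3-fold lower level, and -5.07 ± 0.15 in sgNop16 cells, a 33.7-fold lower level. These values rest on 627 summed counts in stimulated sgCtr and 205 in stimulated sgNop16 cells, against 9779 and 6991 without CIT. Since 1 fragment looks worth about 4 counts, as set out under the processing, the stimulated sums stand for about 156.8 and 51.2 fragments. A fall in a bulk sample can come from fewer cells that make the transcript or from less RNA per cell, and these cannot be told apart here.

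Gnat3 was at 53.2, 52.0 and 51.7 CPM in unstimulated sgCtr libraries and at 6.13, 5.34 and 7.34 CPM after CIT. In sgNop16 cells it was at 43.2, 39.3 and 47.0 CPM without CIT and at 2.91, 4.05 and 3.78 CPM with it. As for Pou2f3, the order was unstimulated sgCtr, unstimulated sgNop16, stimulated sgCtr, stimulated sgNop16, with no overlap between neighbours. This order is a description: the guide difference of Gnat3 without CIT was not called, and the share of all genes without overlap was not computed. The log2 change with CIT was -3.06 ± 0.11 with sgCtr (8.34-fold lower) and -3.58 ± 0.12 with sgNop16 (12-fold lower).

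Ehf stood at 58.0, 46.9 and 53.3 CPM in unstimulated sgCtr cells and at 8.21, 5.06 and 6.46 CPM after CIT. In sgNop16 cells it was at 44.6, 48.2 and 42.8 CPM without and 4.06, 4.40 and 5.62 CPM with CIT. Only the states separated: the libraries of the guides overlapped with and without CIT. Its log2 change with CIT was -3.00 ± 0.15 with sgCtr (8.03-fold lower) and -3.27 ± 0.15 with sgNop16 (9.63-fold lower).

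**Figure D1:**
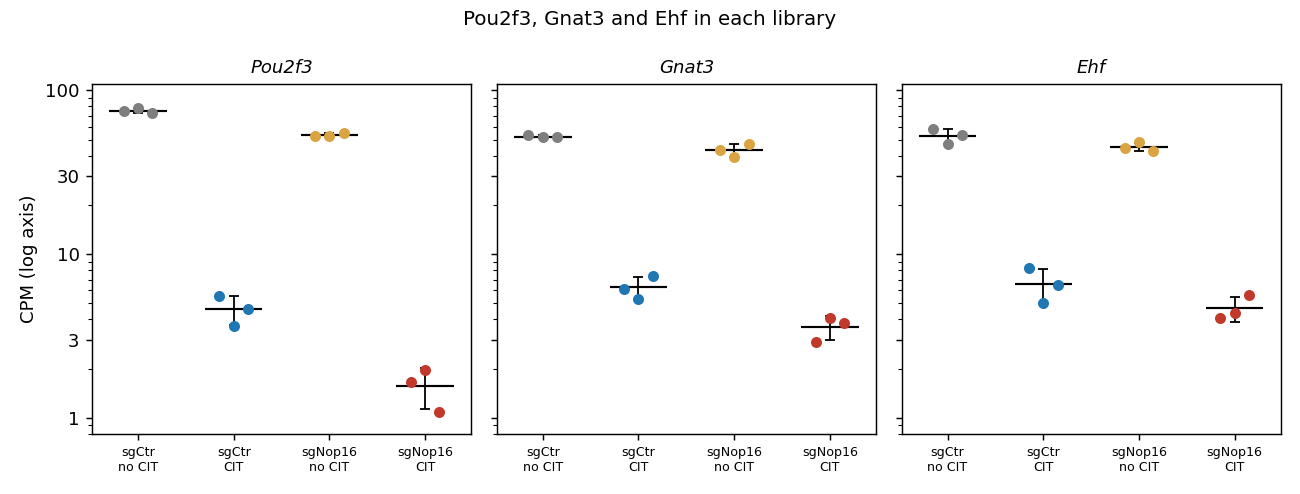
CPM on a log axis of Pou2f3, Gnat3 and Ehf in the 12 libraries, by guide and CIT. Points are libraries, long bars means and short bars the SD (n = 3). All 3 genes sit between 39.3 and 78.2 CPM without CIT and between 1.09 and 8.21 CPM with it.

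Among the 16794 genes tested, sorted from the most negative CIT change with sgCtr, Pou2f3 was at place 32, Gnat3 at 52 and Ehf at 54. With sgNop16 they were at 30, 51 and 64. CIT moved many genes: 41.7% were called with sgCtr and 37.8% with sgNop16 (adjusted p under 0.05 in either direction). In unstimulated sgCtr cells the 3 genes were above 80.4%, 73.0% and 73.1% of tested genes by CPM. After CIT they were still above 37.9%, 40.4% and 40.8% of them, so low levels remained. Per kb of annotated exon in unstimulated sgCtr cells, the level was 24.4 CPM for Pou2f3, 38.4 for Gnat3 and 9.45 for Ehf.

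The guide comparison was not used to pick the genes and was tested with edgeR's quasi-likelihood F test, with Benjamini-Hochberg adjustment over every gene that was tested. Without CIT, Pou2f3 was 1.41-fold lower in sgNop16 than in sgCtr cells (log2 difference -0.50 ± 0.11, adjusted p = 0.0125) with all 3 sgNop16 libraries below all 3 sgCtr libraries. In this comparison 4.06% of tested genes were called in either direction and 1.92% as lower. The call ended when sgCtr replicate 1 or 2 or sgNop16 replicate 1 or 2 without CIT was left out (adjusted p = 0.0569, 0.0731, 0.0683 and 0.0753), at a log2 difference of -0.51 to -0.46. Over all other settings its adjusted p ran from 6.89e-06 to 0.0753. Gnat3 (-0.28 ± 0.10, adjusted p = 0.15) and Ehf (-0.22 ± 0.13, adjusted p = 0.504) were not called. The Ehf difference was -0.14 without unstimulated sgCtr replicate 1 and -0.30 without replicate 2.

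With CIT, Pou2f3 was 2.91-fold lower in sgNop16 than in sgCtr cells (log2 difference -1.54 ± 0.16, adjusted p = 1.4e-05). Gnat3 was 1.74-fold lower (-0.80 ± 0.12, adjusted p = 0.000183). For both, each sgNop16 library lay below each sgCtr library. Of all tested genes, 7.12% were called in this comparison and 3.07% as lower. Both calls held in every other setting that was run, with adjusted p up to 0.00102 for Pou2f3 and 0.0139 for Gnat3. Ehf (-0.48 ± 0.16, adjusted p = 0.0935) was not called, and its adjusted p ran from 0.00595 to 0.3 over the other settings.

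The CIT fall of Pou2f3 was larger with sgNop16 than with sgCtr. The difference between the log2 CIT changes was -1.04 ± 0.20 (adjusted p = 0.00726), where 2.83% of tested genes were called, 1.60% as more negative and 1.23% as more positive with sgNop16. This difference is formed from the same libraries whose CIT fall led to the choice of the gene. The adjusted p stayed at or under 0.0307 in every other setting run. For Gnat3 the difference was -0.52 ± 0.16 (adjusted p = 0.0816) and for Ehf -0.26 ± 0.21 (adjusted p = 0.683), and neither was called. The Ehf value ran from -0.42 without stimulated sgCtr replicate 2 to -0.08 without stimulated sgCtr replicate 1. Whether the members differ from each other in their guide difference was not tested.

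The relatives and coactivators of Pou2f3 did not share its fall in full. The OCA-T1 gene 1810046K07Rik fell 3.56-fold with sgCtr and 4.49-fold with sgNop16. It was at 502.9, 505.7 and 502.4 CPM in unstimulated and 148.3, 143.5 and 133.1 CPM in stimulated sgCtr libraries. In sgNop16 libraries it was at 484.8, 480.1 and 479.7 CPM without and 107.5, 106.8 and 107.5 CPM with CIT. The stimulated sgNop16 libraries were the lowest, as for Pou2f3. Its log2 CIT changes were -1.83 ± 0.03 (adjusted p = 4.35e-22) and -2.17 ± 0.03 (4.61e-23). Its guide difference was -0.06 without CIT (adjusted p = 0.336) and -0.40 ± 0.03 with CIT (2.93e-08), and the CIT responses differed by -0.34 ± 0.04 (0.000103).

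The related factors and the B cell coactivator changed less with CIT, and in both directions. Pou2f2 (OCT2) rose from 165.2 ± 4.30 to 273.3 ± 9.51 CPM with sgCtr (log2 change 0.73 ± 0.03) and from 165.6 ± 3.87 to 236.6 ± 8.0 with sgNop16 (0.51 ± 0.03). Pou2f1 (OCT1) fell from 153.7 ± 7.33 to 110.7 ± 1.47 CPM with sgCtr (-0.47 ± 0.04) and from 156.7 ± 9.85 to 104.7 ± 2.61 with sgNop16 (-0.58 ± 0.04). OCA-B, from Pou2af1, rose from 238.7 ± 5.95 to 268.1 ± 8.29 CPM with sgCtr (0.17 ± 0.03) and from 217.1 ± 4.01 to 265.3 ± 1.94 with sgNop16 (0.29 ± 0.03). Each of these 6 CIT changes was called (adjusted p at most 8.42e-05). The OCA-T2 gene, named Colca2 in the annotation, was near 1 CPM (1.18 ± 0.247 and 1.61 ± 0.242 in sgCtr cells without and with CIT) and was not called. Of the 5 tested genes other than Pou2f3, 2 rose and 2 fell with each guide (40% each way, against 20.6% and 21.1% of all genes with sgCtr and 19.3% and 18.5% with sgNop16).

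Between guides, Pou2f2 was lower with sgNop16 in stimulated cells (-0.21 ± 0.03, adjusted p = 0.000428). The difference between its CIT responses (-0.21 ± 0.05, adjusted p = 0.0195) was no longer called without stimulated sgCtr replicate 2 or 3 or stimulated sgNop16 replicate 2 (adjusted p = 0.0623, 0.0543 and 0.0723). Pou2af1 was lower with sgNop16 in unstimulated cells (-0.14 ± 0.03, adjusted p = 0.00968). That call ended without unstimulated sgCtr replicate 2 or sgNop16 replicate 1 or 2 (0.0682, 0.0576 and 0.0507). Per kb of exon in unstimulated sgCtr cells, Pou2f3 at 24.4 CPM was not below Pou2f2 at 20.0 or Pou2f1 at 9.26 CPM. After CIT the order turned, with Pou2f3 at 1.49, Pou2f1 at 6.67 and Pou2f2 at 33.2 CPM per kb. The exon lengths are unions over annotated transcripts, which lowers the per-kb level of genes with long or many isoforms.

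**Figure D2:**
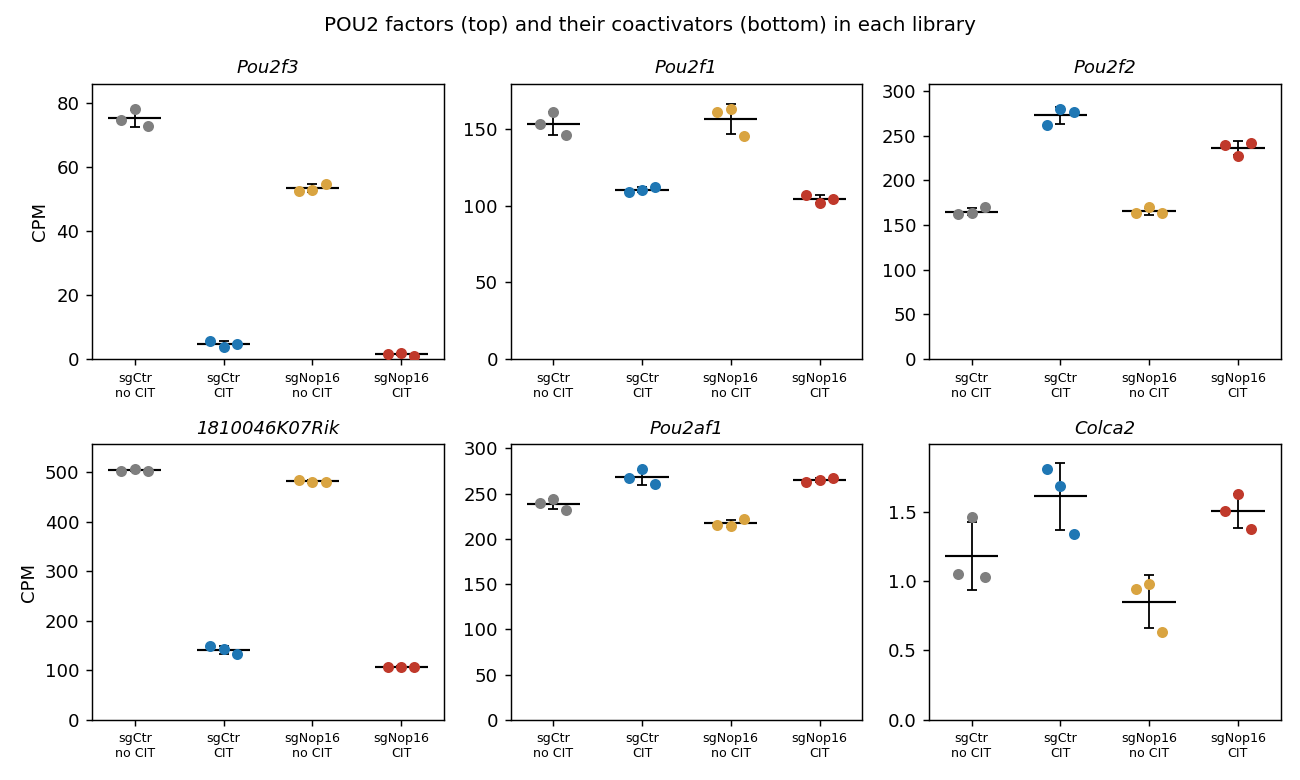
CPM of Pou2f3, its relatives Pou2f1 and Pou2f2 and the coactivator genes Pou2af1, 1810046K07Rik and Colca2 in the 12 libraries, each panel on its own linear axis from 0. Points are libraries, long bars means and short bars the SD (n = 3). Pou2f3 and 1810046K07Rik are lower with CIT in every library, while Pou2f2 is higher.

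Gnat3 sits at the start of the taste transduction chain, and genes of that chain were called in both directions. Of 9 other tested genes of the chain, 2 rose and 2 fell with sgCtr (22.2% each, close to the 20.6% and 21.1% of all genes). With sgNop16 2 rose and 3 fell (22.2% and 33.3%, against 19.3% and 18.5%). The falls were in genes of low level. Tas1r1, the umami receptor subunit, was at 2.46, 2.82 and 4.14 CPM in unstimulated and 0.480, 0.633 and 0.571 CPM in stimulated sgCtr libraries (log2 change -2.48 ± 0.34, adjusted p = 1.93e-06; -2.72 ± 0.34 with sgNop16). The β subunit gene Gnb3 went from 2.32 ± 0.0587 to 0.345 ± 0.239 CPM (-2.73 ± 0.49, adjusted p = 7.48e-05; -2.14 ± 0.50 with sgNop16). These are the receptor and a partner that act beside gustducin in taste cells.

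Gng13, the γ subunit, was at 0.338 ± 0.129 and 0.108 ± 0.0549 CPM in sgCtr cells and at 0.257 ± 0.0576 and 0.0315 ± 0.0148 CPM in sgNop16 cells. Its call with sgNop16 (-2.94 ± 1.09, adjusted p = 0.0368) ended in 11 of 18 other settings, with adjusted p up to 0.122. Leaving out any single sgCtr unstimulated or any sgNop16 library was enough to end it. The β subunit Gnb1, common to many cells, stayed near 302.5 ± 2.34 CPM and was not called. Phospholipase C β2 (Plcb2), the effector of gustducin signalling that B cells also use, was at 176.5 ± 2.25 CPM without and 175.7 ± 9.14 with CIT and was not called for CIT. Plcb2 was lower with sgNop16 in both states (log2 difference -0.31 ± 0.04, adjusted p = 2.5e-05, and -0.26 ± 0.04, adjusted p = 0.000145).

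The IP3 receptor gene Itpr3 rose by 0.39 ± 0.05 on the log2 scale with sgCtr and 0.28 ± 0.05 with sgNop16. Its guide difference with CIT (-0.17 ± 0.05, adjusted p = 0.0278) ended when stimulated sgCtr replicate 1 or 2 or any stimulated sgNop16 replicate was left out (up to 0.152). Trpm4, a channel related to Trpm5, rose from 12.1 ± 1.16 to 27.9 ± 1.69 CPM (1.2 ± 0.09; 1.22 ± 0.09 with sgNop16). Trpm5 itself, the defining channel of tuft cells, was at 0.176 to 0.614 CPM in sgCtr libraries and was not called. The receptor subunit Tas1r3 was at 1.90 ± 0.327 and 1.73 ± 0.758 CPM in sgCtr cells and was not called. Tas1r2 had no counts in any library, and Rgs21 was too low to test.

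Over the wider tuft list, falls outnumbered rises, and the direction differed from gene to gene. The list held 38 genes beside Pou2f3 and Gnat3, of which 26 were tested and 6 had no counts in any library. With sgCtr 7 rose and 10 fell (median log2 change -0.35, against 0.02 over all tested genes). With sgNop16 6 rose and 13 fell (median -0.49, against 0.01). Over all genes 20.6% rose and 21.1% fell with sgCtr, and 19.3% rose and 18.5% fell with sgNop16. The shares of the tuft list were 26.9% and 38.5% with sgCtr and 23.1% and 50.0% with sgNop16. Among 13 tested B cell markers 38.5% rose and 38.5% fell with sgCtr, and 38.5% rose and 46.2% fell with sgNop16. A share of falls above that of all genes was thus not particular to the tuft list.

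Beside Gnb3 and 1810046K07Rik, the falls included Sh2d7, an SH2-domain gene of tuft cells, which was at 90.5, 86.8 and 90.6 CPM in unstimulated and 20.3, 19.8 and 19.4 CPM in stimulated sgCtr libraries. Its log2 change was -2.17 ± 0.06 with sgCtr (adjusted p = 3.23e-18) and -2.43 ± 0.06 with sgNop16. Kctd12, which encodes an auxiliary subunit of GABA-B receptors, fell from 667.1 ± 9.55 to 436.6 ± 3.91 CPM (-0.61 ± 0.03; -0.53 ± 0.03). Other called falls with sgCtr were in Rgs13, Ltc4s, Lrmp, Nrgn and Avil, of which that of Nrgn ended without unstimulated sgCtr replicate 3 or stimulated replicate 1 (adjusted p = 0.2 and 0.0832). Each of the 10 called falls with sgCtr was smaller in size than the CIT change of Pou2f3.

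The rises were led by Siglecf, a sialic acid receptor, from 2.09 ± 0.353 to 11.5 ± 0.267 CPM (2.45 ± 0.16; 2.25 ± 0.16 with sgNop16). The eicosanoid genes Ptgs1, for cyclooxygenase 1, and Alox5ap, for the 5-lipoxygenase activating protein, rose by 1.91 ± 0.06 and 1.42 ± 0.14 on the log2 scale with sgCtr. With sgNop16 they rose by 1.55 ± 0.06 and 1.13 ± 0.14. Gfi1b, a transcriptional repressor, rose by 0.74 ± 0.11 and 0.84 ± 0.11. Spib, an ETS factor of both B cells and tuft cells, was at 553.9 ± 8.63 CPM without and 578.1 ± 10.2 with CIT in sgCtr cells. Its change of 0.06 (adjusted p = 0.0492) ended in 11 of 21 other settings, 9 of them the removal of 1 library, with adjusted p up to 0.217. With sgNop16 Spib fell by 0.09 (adjusted p = 0.00705), a call lost without stimulated sgNop16 replicate 2 (0.0579).

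**Figure D3:**
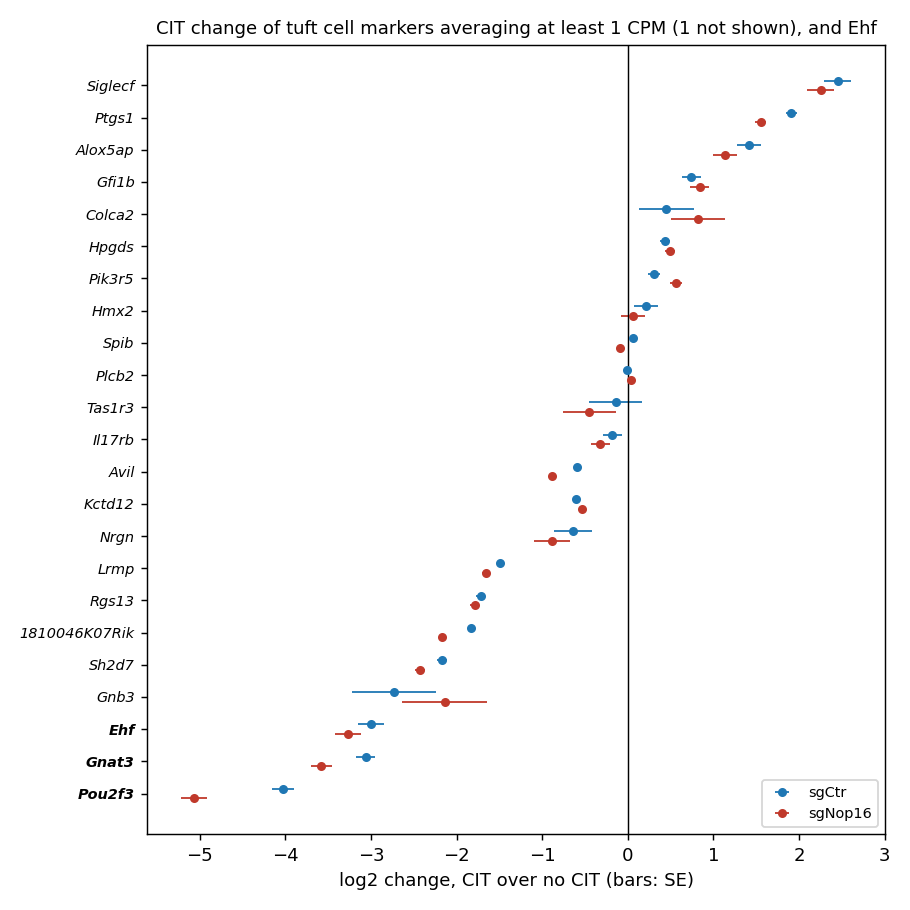
Log2 change with CIT, with the SE as bars, of the tuft markers that averaged at least 1 CPM (1 is not shown), with Ehf added, for sgCtr and sgNop16 cells. Pou2f3, at -4.03 and -5.07, is at the far end of the falls and Siglecf, at 2.45 and 2.25, at the far end of the rises.

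Between guides, called tuft genes were mostly lower with sgNop16. Without CIT 5 of the 26 were lower (Plcb2, Sh2d7, Avil, Kctd12 and Lrmp) and 2 higher (Rgs13 and Nrgn), against 1.92% and 2.14% of all genes. Of these 7 calls, 3 rested on single unstimulated libraries. That of Lrmp ended without any sgCtr replicate or sgNop16 replicate 1 or 2 (adjusted p up to 0.143), that of Rgs13 without sgCtr replicate 1 or 2 or sgNop16 replicate 1 or 3 (up to 0.0958), and that of Nrgn without the same 4 libraries (up to 0.121). With CIT 7 were lower (Sh2d7, Avil, Ptgs1, 1810046K07Rik, Lrmp, Plcb2 and Spib) and none was higher, against 3.07% and 4.05% of all genes. Their log2 differences with CIT ran from -0.54 ± 0.06 for Sh2d7 to -0.18 ± 0.02 for Spib. All were smaller in size than the -1.54 of Pou2f3 and the -0.80 of Gnat3. The median over the tested list was -0.08 without and -0.15 with CIT, against 0.00 and 0.01 over all tested genes. Among 13 tested B cell markers, 4 (30.8%) were lower and none higher with sgNop16 in stimulated cells. In unstimulated cells 3 of them (23.1%) were lower and 2 (15.4%) higher. The share lower with CIT was 26.9% for the tuft list, so this direction was not particular to tuft genes.

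The CIT responses differed between guides for 4 of the 26 tuft genes, all toward a lower response with sgNop16, where 1.60% of all genes were called in that direction. These were 1810046K07Rik (-0.34), Avil (-0.29 ± 0.05), Ptgs1 (-0.36 ± 0.08, adjusted p = 0.0128) and Spib (-0.15 ± 0.03, adjusted p = 0.0204). The call of Ptgs1 ended without stimulated sgCtr replicate 2 (0.0508), and that of Spib without stimulated replicate 2 of sgCtr or of sgNop16 (0.0623 and 0.0766). The CIT response of Ptgs1 was a rise, so its difference is a smaller rise. Among 13 tested B cell markers, 3 (23.1%) were called toward a lower response with sgNop16, against 15.4% of the tuft list. Sh2d7, Avil and Lrmp share annotated exon positions with a gene on the opposite strand (Cib2, Tsfm and Casc1). Pou2f1, Gng13, Trpm5, Tas1r3, Itpr3, Ptgs1, Alox5ap, Kctd12, Elf3, Elk3 and Gna12 do so with other genes, as do Colca2, Ltc4s, Elf1, Gnas and Gnao1. The kit kept strand, and no source states whether the counting used it, so reads from those partners cannot be told apart. Pou2f2, Cd74, Itpr3 and Kctd12 share exon positions with a microRNA gene on the same strand. Pou2f3, Gnat3 and Ehf overlap no annotated exon of another gene.

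**Figure D4:**
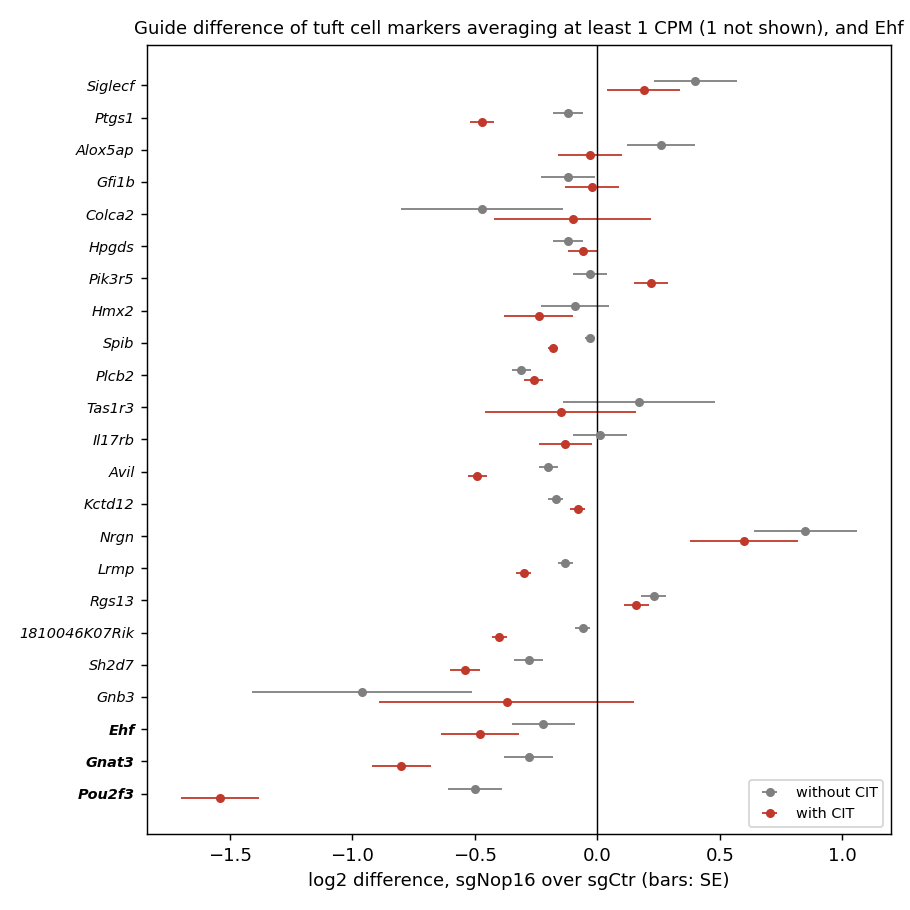
Log2 difference between sgNop16 and sgCtr cells, with the SE as bars, of the same genes without and with CIT, sorted by their CIT change with sgCtr. With CIT Pou2f3 (-1.54), Gnat3 (-0.80), Sh2d7 (-0.54), Avil (-0.49) and Ptgs1 (-0.47) lie left of 0.

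Ehf has an epithelial relative in these cells that fell far less. Elf3 went from 73.0, 68.4 and 72.5 CPM to 47.7, 47.3 and 41.8 CPM in sgCtr libraries (log2 change -0.64 ± 0.06, adjusted p = 2.27e-09; -0.69 ± 0.06 with sgNop16). The third member of that subfamily, Elf5, lies next to Ehf and was too low to test. In the ETS family as a whole, 7 of 19 tested genes other than Ehf rose and 5 fell with sgCtr, and 6 rose and 5 fell with sgNop16. These are 36.8% and 26.3% with sgCtr, against 20.6% and 21.1% of all genes, and 31.6% and 26.3% with sgNop16, against 19.3% and 18.5%. Ets2 fell from 127.8 ± 2.11 to 47.4 ± 1.43 CPM (-1.43 ± 0.05), Ets1, a lymphoid factor, from 355.3 ± 5.33 to 210.8 ± 2.79 CPM (-0.75 ± 0.03) and Etv5 from 17.7 ± 0.951 to 10.4 ± 0.817 CPM (-0.77 ± 0.10).

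The rises in the family were Elk3, from 55.2 ± 2.04 to 140.3 ± 1.38 CPM (1.35 ± 0.04), Elk1 (0.62 ± 0.11), Fli1 (0.54 ± 0.06) and Etv3 (0.45 ± 0.05) among others. Elk1 shares exon positions with Uxt on the same strand, so its count is uncertain. Elf1, at 239.0 ± 11.5 CPM, was not called. Ehf was thus the tested ETS gene with the most negative fitted CIT change, which is what it was picked for. Its guide differences were not called, while Ets1 was lower with sgNop16 in both states (-0.29 ± 0.03, adjusted p = 3.9e-06, and -0.33 ± 0.03, adjusted p = 4.69e-07).

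Gnat3 moved against the called G protein α subunits. Of the 12 others tested, 10 rose and none fell with sgCtr (83.3%, against 20.6% of all genes), and 9 rose and none fell with sgNop16 (75.0%, against 19.3%). Gnat2, the cone transducin gene and a close relative of Gnat3, was not called, at 2.90 ± 0.339 CPM without and 2.13 ± 0.952 CPM with CIT in sgCtr cells (log2 change -0.44 ± 0.29, adjusted p = 0.253). With sgNop16 its log2 change was 0.18 ± 0.29. Gna15, the α subunit found mainly in blood cells, rose from 11.1, 10.3 and 12.4 CPM to 146.1, 155.7 and 158.8 CPM in sgCtr libraries, a 13.6-fold rise (log2 change 3.77 ± 0.06). With sgNop16 its rise was 14.2-fold. Gna12 (0.81 ± 0.07), Gnao1 (0.55 ± 0.07), Gnas (0.22 ± 0.03), Gnai2 (0.26 ± 0.03) and Gnai3 (0.27 ± 0.03) rose less with sgCtr, and Gnaz, with a log2 change of 1.97 ± 0.59, reached 1.03 ± 0.0565 CPM. Gnai1 had no counts in any library.

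**Figure D5:**
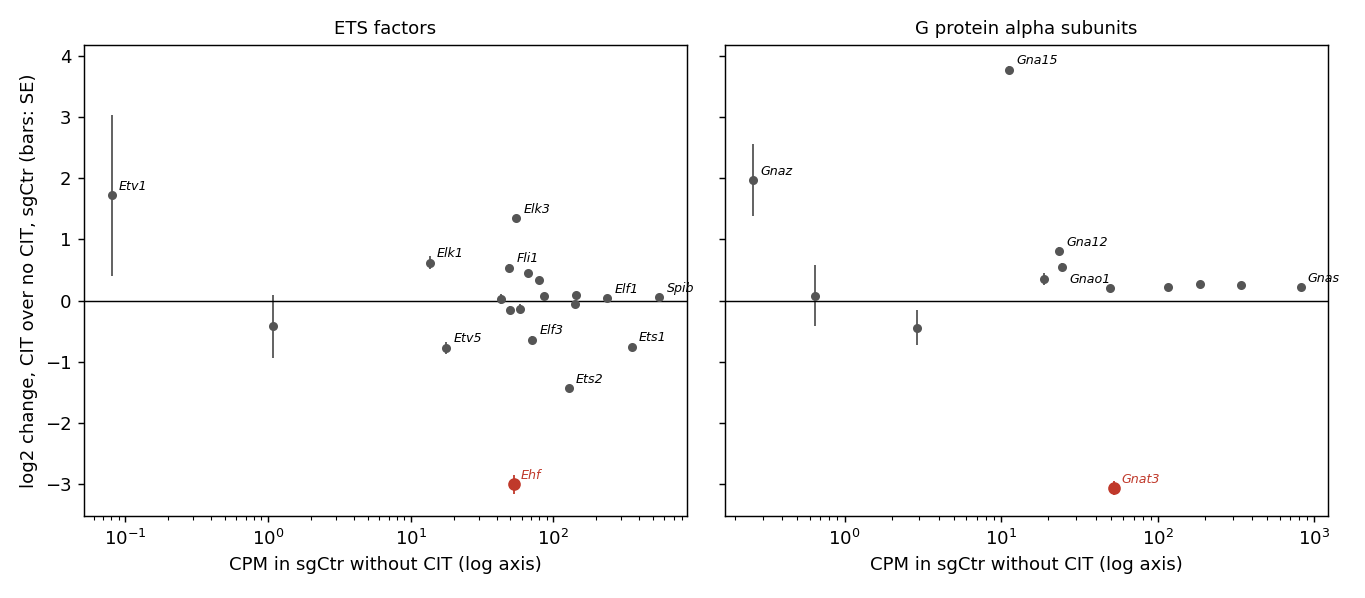
Level without CIT in sgCtr cells (log axis, CPM) against the log2 change with CIT in sgCtr cells, for ETS factors and for G protein α subunits. Each point is a gene with its SE, with Ehf and Gnat3 in red and most genes near 0 unlabelled. Ehf (-3.00) lies below every ETS gene shown and Gnat3 (-3.06) below every α subunit.

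The markers of epithelium and of B cells were read beside these genes, since Pou2f3, Gnat3 and Ehf are not textbook B cell genes. Of 33 other epithelial markers, 10 had no counts in any library, among them Krt5, Krt14, Krt19 and Cldn3, and 10 were tested. The summed level of the list was 138.2 to 148.5 CPM in unstimulated and 174.0 to 188.9 CPM in stimulated sgCtr libraries. In sgNop16 libraries it was 164.3 to 169.7 and 192.7 to 194.9 CPM. These sums are set mostly by Elf3, Trp63 and St14, the most abundant of the list, of which Elf3 fell and St14 rose with CIT. The tuft markers Dclk1, Sucnr1, Bmx, Ffar3, Hmx3 and Sox9 had no counts in any library. The tuft list summed to 2989 to 3011 CPM and 1962 to 2039 CPM in unstimulated and stimulated sgCtr cells, and to 2821 to 2843 and 1725 to 1781 CPM in sgNop16 cells. These sums are set mostly by Kctd12, Spib, 1810046K07Rik, Lrmp and Rgs13, at 667.1, 553.9, 503.7, 388.3 and 278.9 CPM in unstimulated sgCtr cells. The lower sum with CIT in sgCtr cells rests mainly on Kctd12, 1810046K07Rik, Lrmp and Rgs13 and is not a fall of the whole list. Whether other cells have a part in the falls was not tested.

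Of the 10 tested epithelial markers, 5 rose and 1 fell with sgCtr (50% and 10% of them, against 20.6% and 21.1% of all genes; median log2 change 1.43 against 0.02). With sgNop16 3 rose and 2 fell (30% and 20%, against 19.3% and 18.5%; median 1.12 against 0.01). With genes under 5 CPM left out, 2 rose and 1 fell with sgCtr and 1 rose and 2 fell with sgNop16, and Grhl1, Grhl3 and Rab25 were among those under it. St14, a membrane serine protease, rose from 17.3 ± 3.0 to 70.5 ± 3.35 CPM (2.02 ± 0.10; 1.79 ± 0.10 with sgNop16), and Rab25, a small GTPase, from 0.825 ± 0.330 to 2.58 ± 0.402 CPM (1.65 ± 0.34). Grhl1 had no counts without CIT and 93 summed counts with it in sgCtr cells. Grhl3 went from no counts to 37 in sgCtr cells and from 8 to 35 in sgNop16 cells. Trp63 was at 48.6 ± 3.35 CPM without and 51.5 ± 2.33 with CIT in sgCtr cells and was higher with sgNop16 without CIT (log2 difference 0.45 ± 0.06, adjusted p = 3.11e-05). With CIT its guide difference (0.20 ± 0.06, adjusted p = 0.0363) ended in 10 of 21 other settings (up to 0.173), and its fall with sgNop16 (-0.17 ± 0.06, adjusted p = 0.0275) ended without unstimulated sgNop16 replicate 1 or stimulated replicate 3 (0.0753 and 0.147).

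The B cell markers summed to 6657 to 6780 CPM in unstimulated and 9269 to 9666 CPM in stimulated sgCtr libraries. In sgNop16 libraries they summed to 6727 to 6797 and 9102 to 9159 CPM. Cd74 was at 2210 ± 38.9 and Ighm at 2530 ± 13.1 CPM in unstimulated sgCtr cells. With CIT Cd74 rose by 1.16 on the log2 scale with sgCtr and by 0.92 with sgNop16, while Ighm changed by -0.15 with sgCtr. The rise of the sum thus rests mainly on Cd74 and is not a rise of the list. Of 13 tested, 5 rose and 5 fell with sgCtr (38.5% each, against 20.6% and 21.1% of all genes). With sgNop16 5 rose and 6 fell (38.5% and 46.2%, against 19.3% and 18.5%). Cd22 (log2 change -4.50 ± 0.22) and Bank1 (-2.83 ± 0.13), for a B cell scaffold protein, fell by amounts of the size seen for Pou2f3, Gnat3 and Ehf, and were singled out after their values were seen. Cd22 shares exon positions with an antisense gene.

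The genes next to the 3 genes on the chromosome did not in general move with them. On chromosome 9 Pou2f3 lies between Arhgef12 and Tmem136 on one side and Oaf and Trim29 on the other. Arhgef12 was at 62.1 CPM without and 64.9 CPM with CIT in sgCtr cells and was not called, Tmem136 was under 1 CPM and Oaf and Trim29 were too low to test. On chromosome 2 Ehf has Apip and Pdhx on one side, which rose (log2 change 0.52 and 0.19 with sgCtr), and Elf5 and Cat on the other, of which Cat was not called.

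Cd36, next to Gnat3 on chromosome 5, was the exception. The gene encodes a fatty acid and lipoprotein receptor, and at 29.2, 27.5 and 30.1 CPM in unstimulated sgCtr libraries it stood below Gnat3. After CIT it was at 5.33, 3.04 and 3.45 CPM, a 7.36-fold lower level (log2 change -2.88 ± 0.14, adjusted p = 7.23e-14). In sgNop16 cells it went from 39.3, 39.5 and 41.5 CPM to 5.11, 4.22 and 4.38 CPM (-3.14, 8.80-fold lower). Its guide difference without CIT pointed the other way from that of Gnat3 (0.47 ± 0.12, adjusted p = 0.0324), and that call ended without any single unstimulated library (adjusted p up to 0.134). On the far side of Gnat3 lie Gnai1, with no counts, and Magi2, near 1 CPM, and beyond Cd36 lies Sema3c, which was too low to test.

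By the likeness of log2 CPM over the 12 libraries, among 9677 named genes with at least 5 CPM in their highest group, the closest to Pou2f3 were Hipk3, a kinase (Pearson r = 0.996), Dock9, Scd1 and Dok3 (0.995 each) and Lgmn (0.994). The closest to Gnat3 were Txndc16 (0.997), Plk2, Cd180 and Hepacam2 (0.996 each) and Lgmn (0.995). Those closest to Ehf were Txndc16 (0.996), Cited1 (0.995), Atp2a3, the inhibitory co-receptor gene Cd22 and Man2a2 (0.994 each). The libraries form 2 clusters by CIT, so any gene that falls with CIT comes close, and r says little about the size of the fall.

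These look-alikes fell by very different amounts. Hipk3 fell 1.46-fold with sgCtr, from 201.0 ± 4.54 to 137.7 ± 3.15 CPM, and Cd180, a toll-like receptor relative of B cells, fell 1.39-fold. Hepacam2, for an immunoglobulin-domain protein, fell 3.43-fold, from 59.0 ± 1.83 to 17.2 ± 2.98 CPM, Atp2a3, for a calcium pump of the endoplasmic reticulum, 6.03-fold and Plk2, a kinase, 12.8-fold. Cd22 fell 22.6-fold, from 110.5 ± 3.70 to 4.90 ± 2.25 CPM, the one gene of these 13 with a larger CIT change with sgCtr than Pou2f3.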

How the data were processed

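RNA-seq of 12 libraries was analysed, 3 in each of 4 groups set by guide and CIT. Total RNA was made into libraries with a directional kit, per the labels' protocols. HISAT2 2.2.1, StringTie 2.2.1 and the build GRCm39 appear in the submitters' processing notes with no role given. The authors deposited 1 table of estimated counts, whole numbers not scaled to library size. The excess of values at 4 (8845, against 7532 at 3 and 4025 at 5) makes 1 fragment look worth about 4 counts, though no source says so. Precision is thus lower than the counts imply. Values at 8 (3745, against 4431 at 7 and 2917 at 9) showed no such excess, so the figure of 4 is approximate. Symbols were matched for 51948 of 56941 genes through a GRCm38 annotation, and the 4993 without one took up no more than 0.365% of any library. Exon lengths, overlaps and gene order come from that annotation. With counts divided by 4, replicates of a group differed by a mean chi-square of 2.25 to 3.84, so no library was a copy of another.

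Genes kept by filterByExpr, 16794 of them, were tested with edgeR 4.0.16 (R 4.3.3): TMM factors (0.985 to 1.013), a mean per group over all 12 libraries and a robust quasi-likelihood F test, which is two-sided. The Benjamini-Hochberg adjustment ran over all tested genes, genes with an adjusted p under 0.05 were called, and "rose" and "fell" are used of called genes or, for Pou2f3, Gnat3 and Ehf, as a description. CPM are counts scaled to the library's total over the tested genes times its TMM factor, with the SD over 3 libraries. The SE printed with a log2 change or difference is its size divided by the square root of F. It thus comes from the F statistic, also for the CIT changes of Pou2f3, Gnat3 and Ehf, for which no p is given. On data simulated for the guide comparison without CIT, the step recovered 81.9% of 2-fold and 95.8% of 4-fold changes among 200 changed genes of 16316, with 9 false calls. The changed genes were drawn with genes of the lowest level left out. The simulated data held no CIT effect, and their counts were single units and not multiples of a fragment. These rates may therefore not hold for every gene here. Alternatives were RLE factors, plain totals, no low-count filter, 5 CPM in 3 libraries, counts divided by 4, only the groups compared, the replicate number as a block, DESeq2 1.42.0 and each library left out in turn. A fit without the robust option was added after the data were seen.

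The 3 genes, the gene lists and the tests were chosen with earlier results of these data known, so a list's counts are descriptions. Named genes were the 3 genes in full, all of the POU2 and taste lists, up to 4 called members each way with the largest CIT change and the 3 most abundant of the other lists (for B cell markers the latter alone), the 2 nearest coding genes on each side, and the 5 genes most alike in pattern. Other called members of the tuft list were named after their values were seen. A few genes covered by this choice are not reported here.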

Additional observations from a re-analysis of the deposited data

Results flagged for a closer look

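Pou2f3 was marked because its CIT response differed between the guides by a test of the difference itself. The log2 CIT change was -4.03 ± 0.13 with sgCtr and -5.07 ± 0.15 with sgNop16, a difference of -1.04 ± 0.20 (SE; edgeR's quasi-likelihood test with Benjamini-Hochberg adjustment, adjusted p = 0.00726). The stimulated sgNop16 libraries, at 1.66, 1.95 and 1.09 CPM, all lay below the stimulated sgCtr libraries at 5.53, 3.65 and 4.66 CPM. The adjusted p ran from 3.2e-07 to 0.0307 over the other settings. The difference is formed from the same libraries whose CIT fall led to the choice of the gene, so its test is not independent of that choice.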

How the results depend on the processing

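No fitted difference of Pou2f3, Gnat3 or Ehf changed sign under the settings run. The guide difference of Gnat3 without CIT became a call with counts divided by 4 (-0.27, adjusted p = 0.0342) and with only the groups compared (-0.28, 0.0248), in a range of 0.0248 to 0.455. The difference between its CIT responses became one with the 5 CPM filter (-0.53, 0.0307), with DESeq2 (-0.53, 0.0256) and without stimulated sgCtr replicate 2 (0.037), in a range of 0.0256 to 0.241 and, with single libraries left out, of -0.63 to -0.40. The guide difference of Ehf with CIT became one with DESeq2 (-0.49, 0.00927), without stimulated sgCtr replicate 2 (0.00595) and without stimulated sgNop16 replicate 3 (0.0399), and ran from -0.64 to -0.30 with single libraries left out. With single libraries left out, the guide difference of Ehf without CIT ran from -0.30 to -0.14 and the difference between its CIT responses from -0.42 to -0.08, with no call. The guide difference of Pou2f3 without CIT ran from -0.51 to -0.46 and lost its call without any of 4 libraries. Rises among epithelial markers fell from 5 to 2 with sgCtr and from 3 to 1 with sgNop16 under the 5 CPM filter, which tests fewer genes, while the falls stayed at 1 and 2, so that with sgNop16 falls then outnumbered rises. Falls among them with sgNop16 were 1 to 2 with single libraries left out. Over all genes, DESeq2 called 767 genes for the difference between the CIT responses against 475. With single libraries left out this count was 305 to 389, lowest without unstimulated sgNop16 replicate 1 (305) and stimulated sgNop16 replicate 2 (306). The guide difference with CIT was called for 777 to 1162 genes against 1195, lowest without stimulated sgNop16 replicate 2. The cause of these moves was not tested.

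Replicate numbers did not pair the libraries: deviations of same-numbered libraries from their group means, over 10295 genes, correlated at -0.32 to 0.20 in 18 pairs, and 5 pairs were over 0.1. With the number as a block, Pou2f3 differed between guides by -0.49 without CIT (adjusted p = 0.04) and -1.54 with CIT (0.000241), and its CIT responses by -1.04 (0.0262). With this block 617 genes were called for the guide without CIT, 1117 with CIT, 6932 and 6247 for CIT with sgCtr and sgNop16, and 407 for the difference between the CIT responses. Depth limits stimulated Pou2f3 most, at 205 counts over the 3 sgNop16 libraries, or 51.2 when divided by 4.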

Other observations

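Genes of eicosanoid synthesis on the tuft list went in both directions with CIT. Ltc4s, the leukotriene C4 synthase gene, fell from 1.53 ± 0.483 to 0.480 ± 0.185 CPM with sgCtr (log2 change -1.66 ± 0.43, edgeR adjusted p = 0.00266). Hpgds, the hematopoietic prostaglandin D synthase gene, rose from 40.1 ± 2.12 to 54.2 ± 1.73 CPM (0.43 ± 0.06). Rgs13, a regulator of G protein signalling, fell from 278.9 ± 9.07 to 84.7 ± 5.94 CPM with sgCtr (-1.72 ± 0.05) and from 326.0 ± 10.3 to 94.4 ± 7.60 CPM with sgNop16 (-1.79 ± 0.05). Unlike Pou2f3 it was higher with sgNop16 without CIT (0.23 ± 0.05, adjusted p = 0.0206), a call that ended with the replicate block (0.0689) and without unstimulated sgCtr replicate 1 or 2 or sgNop16 replicate 1 or 3 (up to 0.0958).

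The octamer ATGCAAAT, on either strand, was found in a promoter window of 4 of the 33 tuft-list genes that had one. These were 1810046K07Rik, Hpgds, Kctd12 and Sucnr1, and a gene can have more than 1 window. Over single windows of all genes the share was 1.60%, which is a share of windows and not of genes. The 2 are thus not on the same measure, and the share of all genes was not computed. With CIT and sgCtr 1810046K07Rik and Kctd12 fell, Hpgds rose and Sucnr1 had no counts.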
